A study of Arabidopsis thaliana with 64 samples.

Results

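The Dex response of GR-ENAP1 seedlings was described from 16 of the 64 libraries of a study of 4 transcriptional regulators in Arabidopsis thaliana. These were the 8 libraries of seedlings moved to dexamethasone (Dex) and the 8 of seedlings moved to a mock plate, chosen by their labels alone. Every plant was in the Col-0 background and carried a transgene in which the constitutive 35S promoter drives ENAP1 fused to the steroid-binding part of the glucocorticoid receptor (GR). Dex binds the GR part and lets the fusion protein enter the nucleus. The 4 transgenic lines, L1, L2, L4 and L5, were independent insertions of the same construct, and each gave 2 replicates with Dex and 2 with mock. Seedlings grew for 5 days in the dark and were then moved on a mesh to 10 µM Dex or mock medium for 24 h, still in the dark. Whole seedlings made each replicate, and the study calls the replicates biological. With the line as a block, p-values measure the spread between replicates within lines together with differences of the response between lines. The study gave the same treatment to lines carrying GR-CHA19, GR-LBD16 or GR-WRI3, and each of these factors had as many libraries as GR-ENAP1. No line without a fusion was among the samples, so an effect of Dex alone could be compared only with the other 3 factors. The 35S promoter makes the fusion with and without Dex, and the construct carried a red fluorescent oleosin as a seed marker, so reads of OLEO1 cannot be assigned to gene or transgene.

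ENAP1 (EIN2 nuclear associated protein 1) is a trihelix-type DNA-binding protein that binds the nuclear fragment of EIN2, the central relay of the ethylene pathway. Ethylene receptors at the endoplasmic reticulum keep EIN2 inactive. When the hormone binds, a part of EIN2 is released to the nucleus, where ENAP1 has been linked to histone acetylation at ethylene-responsive genes under the transcription factors EIN3 and EIL1. Seedlings kept in the dark live on the reserves of the seed, elongate the hypocotyl and hold back chloroplast development. Whole-seedling RNA was measured, so fewer cells of a type and less RNA per cell cannot be told apart.

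Read counts per gene were summed over the 2 sequencing runs of each library, which gave totals of 2059928 to 5941512 counts with Dex and 2669391 to 7571782 with mock. Levels are given below in CPM, the count scaled by library size after correction with the trimmed mean of M values (TMM), and differences as log2 Dex over mock with their standard error (SE). Correlations of log2 CPM over the genes tested set 2 libraries apart. The median correlation with the other 15 libraries was 0.802 for L1 mock replicate 1 and 0.894 for L2 Dex replicate 1, and 0.956 to 0.975 for the other 14. These 2 libraries, 1 in each treatment, were more like each other (r = 0.959) than like the rest. The summed level of 18 light-harvesting genes was 1791 CPM in L1 mock replicate 1 and 7046 in L2 Dex replicate 1, against 12439 to 27853 in the other 14. That of 12 genes induced by starvation in the dark was 2507 and 4394 CPM, against 10459.8 to 19299.5. The 8 root markers summed to 246 and 143 CPM, against 87.8 to 141.6, and the 8 cell division markers to 132 and 89.0, against 40.7 to 85.6. Results therefore name the set used: the 15 libraries without L1 mock replicate 1, all 16, or the 14 without both. Several single genes are given only for the set in which they were chosen. Chloroplast genes took 0.813 to 2.23% of the counts and mitochondrial genes 0.150 to 0.358%.

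**Figure D1:**
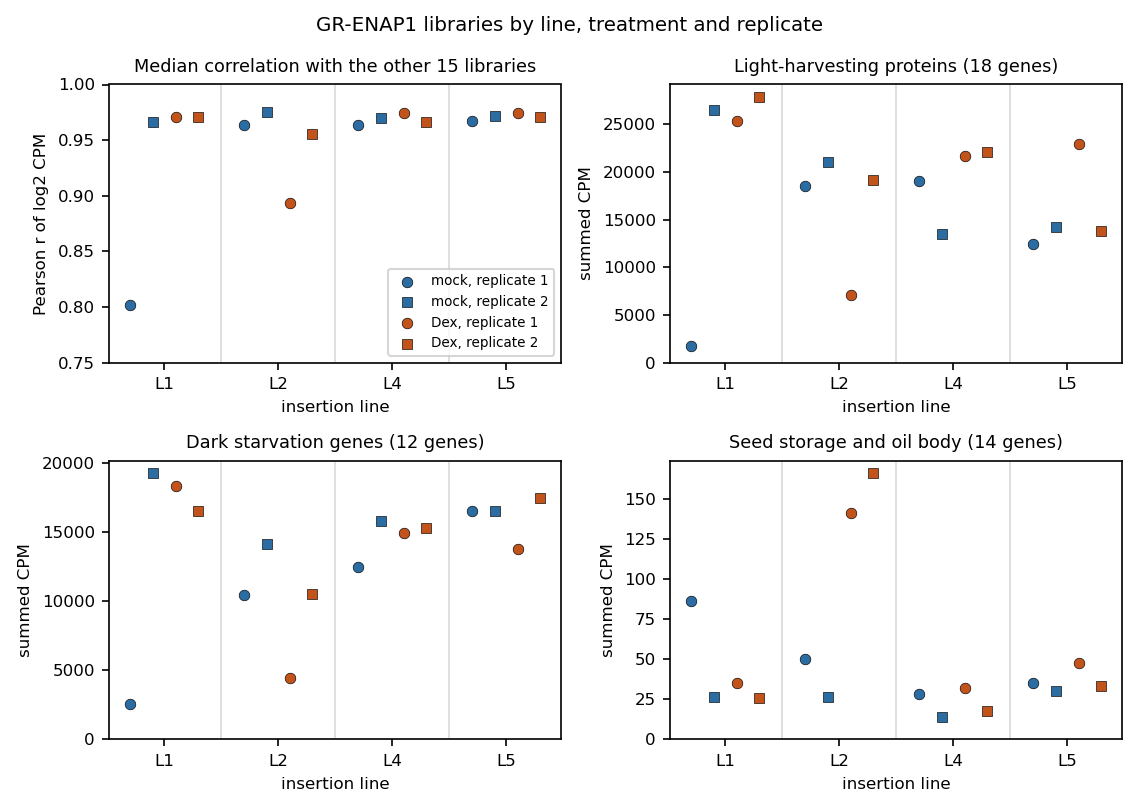
The 4 panels plot, for each of the 16 GR-ENAP1 libraries by line, the median correlation with the other 15 libraries and the summed level in CPM of light-harvesting genes, dark starvation genes and seed storage and oil body genes (blue, mock; orange, Dex; circles, replicate 1; squares, replicate 2). L1 mock replicate 1, at a correlation of 0.802, and L2 Dex replicate 1, at 0.894, lie apart from the other 14 libraries and have the lowest light-harvesting and dark starvation sums.

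The level of ENAP1 (AT3G11100, chromosome 3, 3476187 to 3477900, minus strand, TAIR10.1), which includes reads of the transgene, was compared with that in lines without the construct. With the 64 libraries scaled together, ENAP1 had 109 to 567 CPM in the GR-ENAP1 libraries (median 241), and the medians of the other factors were 98.7 (GR-CHA19), 76.3 (GR-LBD16) and 96.9 (GR-WRI3). The highest values of these 3 factors were 118, 93.5 and 118 CPM, so the GR-ENAP1 range overlapped those of GR-CHA19 and GR-WRI3 and lay above that of GR-LBD16. Where the ranges overlap, the level alone does not show that a library carried the construct. Levels differed between lines and between libraries of a line. L1 had 506 and 243 CPM with Dex and 143 and 518 with mock. L2 had 113 and 148 with Dex and 134 and 179 with mock, the lowest of the 4 lines. L4 had 249.7 and 283 with Dex and 201 and 225 with mock, and L5 had 283 and 581 with Dex and 531 and 549 with mock. Within a line the highest library exceeded the lowest by a ratio of 3.62 in L1, 1.59 in L2, 1.41 in L4 and 2.05 in L5. The lines thus kept neither a common level of the transcript nor a constant level between their own libraries. Dex and mock did not differ beyond this spread. The log2 difference was −0.17 (SE 0.18, adjusted p = 0.814) in 15 libraries and −0.02 (SE 0.25, adjusted p = 1) in all 16 by the quasi-likelihood test of edgeR, with p adjusted by Benjamini and Hochberg.

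**Figure D2:**
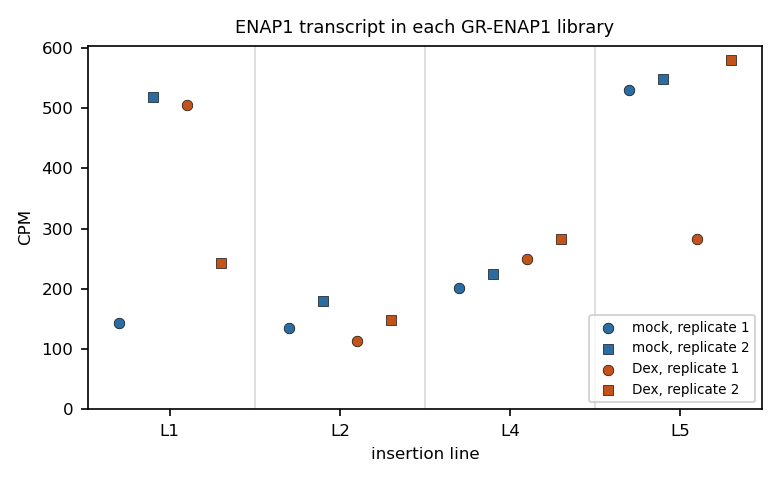
Each point is the level of ENAP1 in CPM in 1 GR-ENAP1 library, by line (blue, mock; orange, Dex; circles, replicate 1; squares, replicate 2). L2 lies between 113 and 179 CPM and L4 between 201 and 283, while L1 and L5 each span a wider range, 143 to 518 CPM in L1 and 283 to 581 in L5.

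Whether nuclear entry of the fusion changed transcript levels was asked with edgeR's quasi-likelihood test on all genes, with the line as a block. No gene passed an adjusted p of 0.05. In all 16 libraries 0 of 18506 genes (0%) passed and 259 (1.40%) had an unadjusted p under 0.05, with 134 (0.724%) higher and 125 (0.675%) lower with Dex. In 15 libraries 0 of 18837 (0%) passed and 1159 (6.15%) had an unadjusted p under 0.05, of which 635 (3.37%) were higher and 524 (2.78%) lower. Without both libraries that stood apart, 0 of 18502 (0%) passed and 765 (4.13%) were under that unadjusted threshold, 386 higher (2.09%) and 379 lower (2.05%). Other tools gave other counts. In 15 libraries DESeq2 called 1 gene (0.00531%), AT5G44310, limma with voom quality weights called 1 (0.00531%), CRA1, and edgeR with no filter on low counts called 193 of 26363, with 136 higher (0.516%) and 57 lower (0.216%). A negative binomial model for each gene alone, of the kind used by the study, called 432 genes higher (2.29%) and 399 lower (2.12%) in 15 libraries, and 131 higher (0.708%) and 161 lower (0.870%) in 16. Limma with voom quality weights called 1 gene (0.00540%) in 16 libraries, again CRA1. With replicate number as a further block, edgeR called 15 of 18837 genes in 15 libraries, all higher, and 0 of 18506 in 16. The coefficient of biological variation was 0.288 in 16, 0.164 in 15 and 0.127 in 14 libraries. A common direction in the 4 lines was found for 2557 genes (13.6%) in 15 libraries, for 2466 (13.3%) in 14 and for 1215 (6.57%) in 16. The median log2 difference over all genes tested was −0.02, 0.00 and 0.00 in the 16, 15 and 14 libraries. The genes named below from this test are those of lowest p in each direction with a mean level of at least 1 CPM. The same direction in all 4 lines was also a condition of the choice. Genes named further below from gene lists were not held to it. The values are descriptions of differences that did not pass the adjusted threshold in this test.

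The 12 genes of lowest p among those higher with Dex in each line in 15 libraries were mostly genes of the seed. A total of 6 of them encode late embryogenesis abundant (LEA) proteins or dehydrins, hydrophilic proteins that accumulate as seeds dry and protect cells from water loss. CRA1 encodes a 12S cruciferin, a storage globulin, and AT3G01570 an oleosin, a coat protein of the oil body. ATOEP16-2 encodes a plastid envelope channel, TOM20-3 a receptor for protein import into mitochondria, AT3G19920 a BTB/POZ domain protein and AT5G48640 a cyclin family protein. The promoters of 3 of the LEA genes are shown as RefSeq has them (TAIR10.1), 250 bases up to the annotated start. These 3 had the lowest p among the LEA and dehydrin genes of this group. These genes and the motif, CACGTG, the G-box core bound by bZIP factors of the abscisic acid pathway, were chosen after their values were seen. Capitals mark CACGTG, which reads the same on both strands.
AT5G44310, chr5:17849537-17849786, minus strand: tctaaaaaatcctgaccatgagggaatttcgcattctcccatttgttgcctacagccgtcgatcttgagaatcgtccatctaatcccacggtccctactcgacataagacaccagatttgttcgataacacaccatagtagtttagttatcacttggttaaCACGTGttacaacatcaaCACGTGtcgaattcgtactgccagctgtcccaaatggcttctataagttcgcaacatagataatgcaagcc
AT3G02480, chr3:511970-512219, plus strand: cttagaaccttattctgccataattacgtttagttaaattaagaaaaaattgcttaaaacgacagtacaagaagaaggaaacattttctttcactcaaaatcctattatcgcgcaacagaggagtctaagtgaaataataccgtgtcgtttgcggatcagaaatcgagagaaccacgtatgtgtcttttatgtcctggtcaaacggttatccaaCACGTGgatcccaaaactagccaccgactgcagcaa
AT2G21490, chr2:9207126-9207375, minus strand: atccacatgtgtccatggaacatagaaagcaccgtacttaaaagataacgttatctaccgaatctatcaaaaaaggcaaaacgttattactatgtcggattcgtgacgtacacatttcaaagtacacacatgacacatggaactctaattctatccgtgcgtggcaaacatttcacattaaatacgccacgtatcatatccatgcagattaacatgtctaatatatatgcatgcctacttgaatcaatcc
CACGTG was in the 250 bases before the start of 5 of the 12 genes, ATOEP16-2 with 4 copies, AT5G44310 and AT4G21020 with 2 each, and AT3G02480 and AT3G17520 with 1 each. It was in 1397 of 18719 such windows (7.46%) over the genes tested. None of the 3 windows printed overlaps another annotated gene.

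AT5G44310, an LEA family gene on chromosome 5 (17847781 to 17849536, minus strand), had the lowest p of the 12. Its lowest, median and highest levels were 2.15, 7.89 and 77.0 CPM with Dex and 0.811, 2.76 and 14.6 in the 7 mock libraries. The L2 Dex libraries, at 77.0 and 28.2 CPM, held the 2 highest values, L2 mock had 14.6 and 4.82, and the 2 treatments overlapped. The log2 difference was 2.13 (SE 0.39, adjusted p = 0.747 by edgeR's quasi-likelihood test), and by line it was 1.49 in L1, 2.39 in L2, 1.24 in L4 and 1.72 in L5. The library left out, L1 mock replicate 1, had 26.3 CPM, above the other mock libraries and above each Dex library except those of L2. With it the difference was 1.09 (SE 0.73, adjusted p = 1), and without both libraries that stood apart it was 1.71 (SE 0.38, adjusted p = 1).

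The other LEA genes of this group were highest in the same libraries. AT3G02480 (chromosome 3, 512220 to 513036, plus strand) had 1.51, 15.6 and 130.1 CPM with Dex as lowest, median and highest, and 0.811, 3.26 and 32.7 with mock. AT3G15670 had 2.58, 18.5 and 190.4 with Dex and 1.06, 4.78 and 39.1 with mock. The dehydrin gene LEA (AT2G21490, chromosome 2, 9205990 to 9207125, minus strand) had 1.5, 5.46 and 33.7 with Dex and 0.424, 1.62 and 8.39 with mock. In each of these 3 genes L2 Dex replicate 1 was the highest of the 16 libraries, and Dex and mock overlapped. Their log2 differences in 15 libraries were 2.1 (SE 0.47), 2.12 (SE 0.51) and 2.07 (SE 0.46), each with an adjusted p of 0.747. With L1 mock replicate 1, which had 47.1, 64.1 and 6.41 CPM, they were 1.12, 1.1 and 1.39, each with an adjusted p of 1. Without both libraries they were 1.90, 1.76 and 1.82. With replicate number as a further block, these 3 genes and AT5G44310 passed the adjusted threshold in 15 libraries, while 0 genes passed in 16. AT3G17520 and AT4G21020 differed by 1.75 (SE 0.41) and 1.82 (SE 0.43) in 15 libraries, and by 0.93 and 0.81 in 16.

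**Figure D3:**
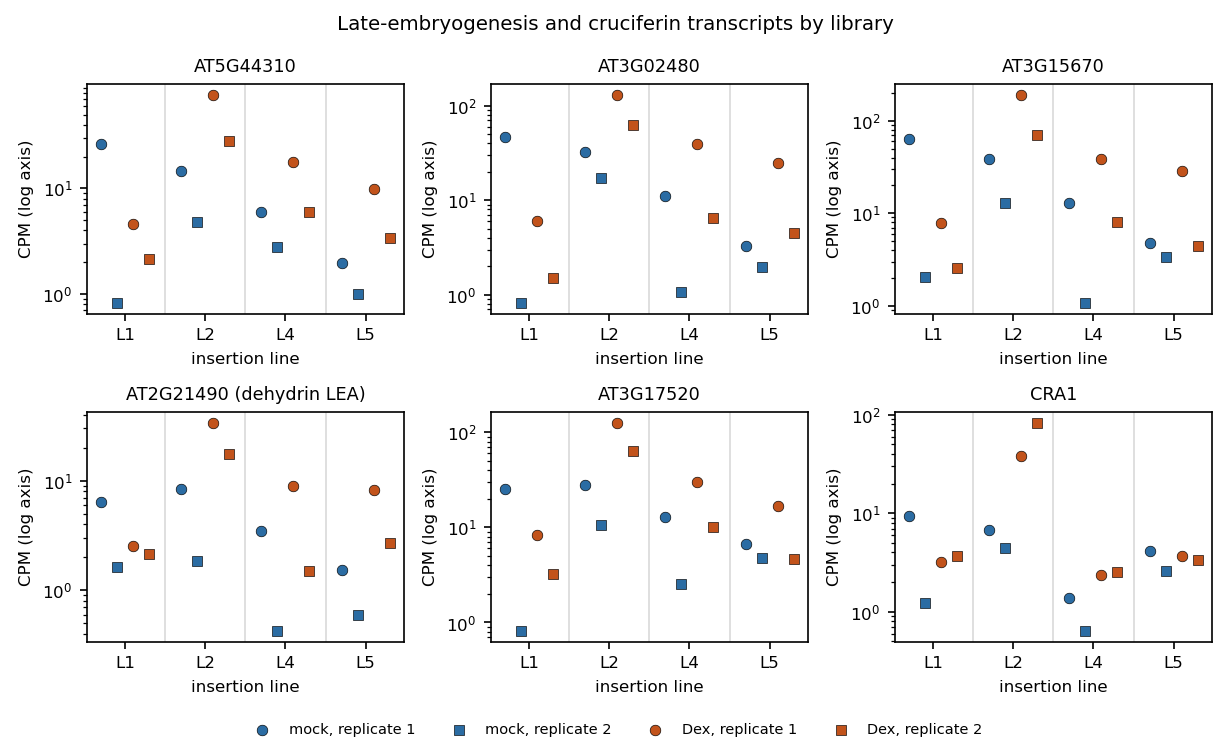
Level in CPM on a log axis of 5 LEA genes (AT5G44310, AT3G02480, AT3G15670, the dehydrin gene AT2G21490 and AT3G17520) and the cruciferin gene CRA1 in each GR-ENAP1 library, by line (blue, mock; orange, Dex; circles, replicate 1; squares, replicate 2). The L2 Dex libraries lie at or near the top of every panel, and L1 mock replicate 1 lies above the other mock libraries in AT5G44310 (26.3 CPM), AT3G02480 (47.1) and AT3G15670 (64.1).

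CRA1 (AT5G44120, chromosome 5, 17756238 to 17758336, minus strand) had 2.35, 3.51 and 83.2 CPM with Dex and 0.636, 2.58 and 6.71 with mock. Its Dex values were high in L2 only, at 37.8 and 83.2 CPM, and the other 6 Dex libraries had 2.35 to 3.70. The log2 difference of 2.19 (SE 0.47, adjusted p = 0.747) in 15 libraries was 3.25 in L2 and 1.2, 1 and 0.09 in L1, L4 and L5. Over the alternative fits of the 15 libraries the CRA1 difference ranged from 0.63 to 2.98. The oleosin gene AT3G01570 had 1.51, 4.63 and 30.6 CPM with Dex and 0.405, 1.79 and 8.55 with mock, and differed by 1.67 (SE 0.40). Both groups overlapped for this gene also. ATOEP16-2 had 0.215, 2.02 and 26.4 CPM with Dex and 0, 0.794 and 5.04 with mock, and differed by 1.98 (SE 0.47). AT3G19920 had 8.55, 15.5 and 82.1 with Dex and 5.67, 10.1 and 20.6 with mock, and differed by 1.10 (SE 0.25). With L1 mock replicate 1, at 54.3 CPM of AT3G19920, that difference was 0.44.

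TOM20-3 and AT5G48640 had a narrower spread than the seed genes. TOM20-3 (AT3G27080) had 17.3, 22.2 and 33.7 CPM with Dex and 14.2, 16.5 and 21.1 with mock. The highest level, 53.2 CPM, was in L1 mock replicate 1. TOM20-3 differed by 0.47 (SE 0.10, adjusted p = 0.747) in 15 libraries and 0.14 in all 16. AT5G48640 had 21.1, 24.7 and 28.9 CPM with Dex and 15.3, 19.0 and 21.2 with mock, so that only the ends of the ranges overlapped. It differed by 0.39 (SE 0.09) in 15 libraries, 0.34 in 16 and 0.36 in 14. It was higher with Dex in each line, as the choice required, by 0.50 in L1, 0.50 in L2, 0.39 in L4 and 0.17 in L5.

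Across the list of seed storage and oil body genes, 11 of 12 tested were higher with Dex in 15 libraries, with a median log2 difference of 0.96, against a median of 0.00 over all genes tested. None passed the adjusted threshold, and 8 were higher with an unadjusted p under 0.05, as were 3.37% of all genes. In 16 libraries 8 of 10 were higher, with a median of 0.44 and 0 under that unadjusted p, where 0.724% of all genes were. In 14 libraries 9 of 11 were higher, with a median of 0.80 and 4 under it, against 2.09% of all genes. OLEO2 (oleosin) differed by 1.62, SESA1 and SESA5 (albumins) by 1.37 and 1.04, GEA6 (an early LEA protein) by 1.10 and CRU3 (cruciferin) by 0.87 in 15 libraries. OLEO1, which the construct's seed marker shares, did not follow them, with 1.12, 2.54 and 5.39 CPM with Dex, 1.07, 2.61 and 4.86 with mock and a log2 difference of −0.11. Summed over the 14 genes of the list, the level was 141 and 166 CPM in the L2 Dex libraries and 86.5 in L1 mock replicate 1, against 13.99 to 50.1 in the other 13. Without line L2 the median of the list was 0.53 in 15 libraries and −0.14 in 16. Of 95 genes with LEA or dehydrin in the product name, many of them hydroxyproline-rich glycoproteins that carry the name only, 64 were tested in 15 libraries. Of these 46 were higher, with a median of 0.24, and the unadjusted p was under 0.05 for 19 that were higher and 3 that were lower, against 3.37% and 2.78% of all genes. The 19 include the 6 LEA genes named above, which were picked for their low p. In 16 libraries 41 of 62 were higher, with a median of 0.10, 1 higher and 0 lower under that p, and in 14 libraries 43 of 62, with a median of 0.10, 14 higher and 2 lower. Without line L2 the median in 15 libraries was 0.07. The seed sums were highest in both L2 Dex libraries, of which replicate 2 did not stand apart, and in L1 mock replicate 1, and their part in the differences of the LEA genes was not tested.

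Among the genes chosen that were lower with Dex, ARF19 (AT1G19220, chromosome 1, 6627683 to 6633133, minus strand) had the lowest p. It encodes a transcription factor that activates auxin-responsive genes and acts in lateral root formation. L1 had 38.1 and 36.4 CPM with Dex and 47.8 in mock replicate 2, and L2 had 27.4 and 33.7 with Dex and 40.9 and 43.1 with mock. L4 had 38.6 and 39.1 with Dex and 46.4 and 49.6 with mock, and L5 had 35.7 and 36.0 with Dex and 41.5 and 42.7 with mock. Every Dex library was thus below every one of the 7 mock libraries. Such separation was found for 2 of 18837 genes lower (0.0106%) and 2 higher (0.0106%) with Dex, and in 14 libraries for 3 of 18502 lower (0.0162%) and 5 higher (0.0270%). The library left out, at 37.1 CPM, lay within the Dex range. ARF19 differed by −0.34 (SE 0.07, adjusted p = 0.747 by edgeR's quasi-likelihood test) in 15 libraries, −0.29 (SE 0.08, adjusted p = 1) in 16 and −0.29 (SE 0.07, adjusted p = 1) in 14. By line it was −0.36 in L1, −0.46 in L2, −0.30 in L4 and −0.23 in L5. ARF19 overlaps the neighbouring gene AT1G19210 by 6 bases. The other gene lower without overlap was AT1G15415, an LEA-like gene with 0 to 0.640 CPM with Dex and 0.811 to 2.18 in the 7 mock libraries. L1 mock replicate 1 had 0 CPM of this gene, which was named after its values were seen.

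AT3G13610 encodes a 2-oxoglutarate-dependent oxygenase, feruloyl-CoA 6'-hydroxylase, which makes the coumarin scopoletin from the phenylpropanoid pathway. It had 0.671, 2.68 and 6.93 CPM with Dex and 2.83, 5.04 and 11.4 with mock. L5 Dex had the lowest values, at 0.841 and 0.671, and the treatments overlapped through L1 and L4. AT3G13610 differed by −1.25 (SE 0.28, adjusted p = 0.747) in 15 libraries, −1.03 in 16 and −1.13 in 14. Its annotation overlaps AT3G13620 by 67 bases, and the libraries did not keep strand. KCS12, a ketoacyl-CoA synthase of fatty acid elongation, had 42.6, 72.7 and 93.8 CPM with Dex and 57.2, 94.8 and 139.8 with mock. The lowest level, 12.9 CPM, was in L1 mock replicate 1, and the log2 difference was −0.51 (SE 0.13) without it and −0.29 with it. GLR2.5, a glutamate receptor-like channel, had 3.70, 4.83 and 7.02 CPM with Dex and 5.19, 9.13 and 10.4 with mock. It was lower in each line, as the choice required, and its difference of −0.69 (SE 0.18, adjusted p = 0.764) in 15 libraries was −0.63 in 16 and −0.67 in 14. GLR2.5 overlaps another annotated gene, AT5G01865, by 152 bases.

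The other genes of lowest p among those lower with Dex in 15 libraries belong to several families. EXO70E2, a subunit of the exocyst that tethers secretory vesicles, had 9.08, 12.3 and 16.1 CPM with Dex and 13.2, 16.1 and 20.3 with mock, a difference of −0.48 (SE 0.12). cwINV6, annotated as a fructan exohydrolase, had 0.673, 2.99 and 5.33 with Dex and 3.36, 6.24 and 10.4 with mock, a difference of −1.09 (SE 0.30). The subtilase SBT4.12 had 14.4, 24.1 and 36.6 with Dex and 26.6, 30.8 and 40.7 with mock, a difference of −0.42 (SE 0.12). Each of these 3 genes overlapped between the treatments. AT2G39210, a transporter of the major facilitator superfamily, differed by −0.48 (SE 0.11), XBAT34 by −0.78 (SE 0.20), and the kinase gene AT5G39030 by −1.02 (SE 0.28). The uncharacterized gene AT2G18690 and the peroxidase gene AT4G11290 differed by −0.52 (SE 0.14) and −0.36 (SE 0.10).

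Core enzymes of the phenylpropanoid pathway, which turns phenylalanine into lignin, flavonoid and coumarin precursors, were among the genes lower in all 16 libraries. This list of 9 genes was drawn up after these values were seen. PAL1, a phenylalanine ammonia lyase that takes the first step, had 31.8, 42.8 and 48.2 CPM with Dex and 39.1, 48.1 and 66.7 with mock. PAL1 differed by −0.31 (SE 0.08, adjusted p = 1), and −0.29 without L1 mock replicate 1. 4CL2, a 4-coumarate:CoA ligase, had 9.91, 14.7 and 16.4 with Dex and 16.2, 18.7 and 21.6 with mock, and only 1 Dex library, L4 Dex replicate 1 at 16.4 CPM, reached the mock range. Its difference was −0.43 (SE 0.12, adjusted p = 1). C4H, the cinnamate hydroxylase between them, had 84.8, 89.1 and 98.8 with Dex and 94.3, 103 and 117 with mock, a difference of −0.20 (SE 0.07). Of 8 members tested, 7 were lower in 16 libraries, 7 in 15 and 6 in 14, with median log2 differences of −0.22, −0.19 and −0.22. In each case 4 were lower with an unadjusted p under 0.05, as were 0.675%, 2.78% and 2.05% of all genes, and 0 passed the adjusted threshold. PAL1, 4CL2 and C4H, picked for their low p in 16 libraries, are among the 4 there. PAL2, PAL3 and 4CL5 differed by −0.12, −0.03 and 0.03 in 15 libraries. Summed over the list, the level was 240.3 to 281 CPM with Dex and 279 to 342 with mock. Of the libraries that stood apart, L1 mock replicate 1 had 331 CPM. L2 Dex replicate 1 had 281, the highest Dex value, and lay above L4 mock replicate 1 at 279.

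**Figure D4:**
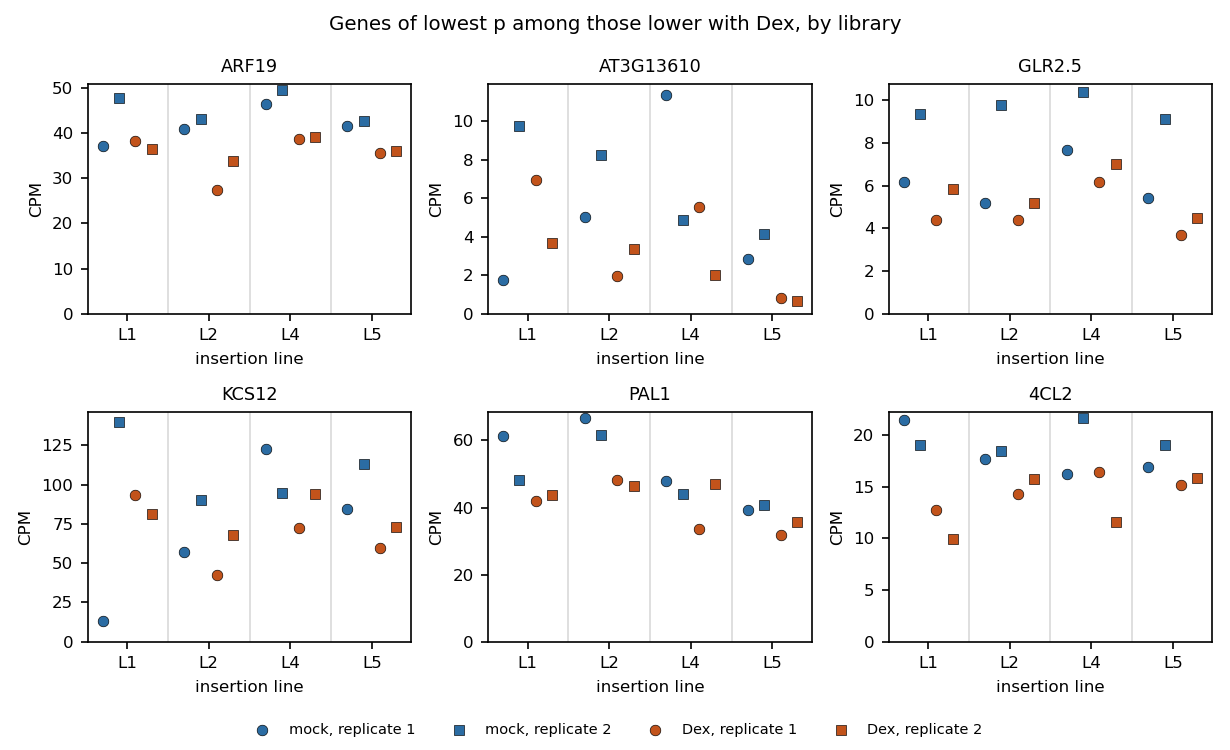
Level in CPM, on axes from 0, of ARF19, AT3G13610, GLR2.5, KCS12, PAL1 and 4CL2 in each GR-ENAP1 library, by line (blue, mock; orange, Dex; circles, replicate 1; squares, replicate 2). The Dex libraries of ARF19 lie at 27.4 to 39.1 CPM and its mock libraries at 40.9 to 49.6, except L1 mock replicate 1 at 37.1, while the treatments overlap in the other 5 genes.

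The genes of lowest p changed with the choice of libraries. Of the 12 higher and 12 lower in all 16 libraries, 1 higher and 3 lower were among the 12 of the same direction in 15. None of the 12 higher in 16 libraries was an LEA or dehydrin gene by product name. AT4G25707, which encodes a splicing factor subunit, was the 1 gene of 18506 (0.00540%) whose Dex libraries all lay above all 8 mock libraries, and 0 genes (0%) lay below without overlap. It had 5.82, 6.85 and 10.5 CPM with Dex and 3.61, 5.13 and 5.80 with mock, with adjoining ranges. The log2 difference was 0.56 (SE 0.12, adjusted p = 1) in 16 libraries and 0.52 in 15, and by line 0.42 in L1, 0.34 in L2, 0.77 in L4 and 0.54 in L5. AT4G37445, which encodes a calcium-binding protein, had 1.71, 3.05 and 5.60 CPM with Dex and 1.22, 1.66 and 2.09 with mock and differed by 1.02 (SE 0.22). AT3G54780, a RING-type zinc finger gene, had 0.862, 1.34 and 2.36 with Dex and 2.12, 2.89 and 3.65 with mock and differed by −0.98 (SE 0.24). Both genes overlapped between the treatments. Among the rest, WRKY50, a defence-related transcription factor, was higher by 0.47, SSE1, a peroxin needed for peroxisomes and oil bodies of the seed, by 0.32, FRO8, a ferric reductase, by 0.58 and the Dof factor AT5G65590 by 0.82. EXO70E1 and the laccase gene IRX12 were lower by a log2 difference of −0.36 and −0.42. In 15 libraries a further gene was higher without overlap, ARPC1B, a subunit of the complex that branches actin filaments, with 3.41 to 4.86 CPM with Dex and 1.52 to 2.98 with mock. It was named after its values were seen, and L1 mock replicate 1 had 5.71 CPM of it.

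Genes of the ethylene pathway, in which ENAP1 acts, showed small differences and 0 passed the adjusted threshold in any set of libraries. Of 15 receptor and signalling genes, 12 were lower with Dex in 15 libraries, 10 in 16 and 14 in 14, with median log2 differences of −0.14, −0.03 and −0.12. EIN2, the signal relay, had 178, 188 and 221 CPM with Dex and 181, 215 and 245 in the 7 mock libraries and differed by −0.14 (adjusted p = 0.764). By line it was −0.13 in L1, −0.30 in L2, −0.12 in L4 and close to 0 in L5, and the ranges overlapped. The receptor gene ERS2 had 24.2, 41.9 and 52.7 CPM with Dex and 43.8, 47.9 and 53.1 with mock, a difference of −0.32 (SE 0.11, adjusted p = 0.764). It was lower in L1, L2 and L5 and higher in L4, by 0.13, and L1 mock replicate 1 had 13.8 CPM. With that library the difference of ERS2 was −0.13. The receptor gene ETR2 had 25.1, 37.1 and 44.3 with Dex and 29.9, 40.9 and 54.3 with mock, a difference of −0.25 (SE 0.11, adjusted p = 0.764). Of the 14 ethylene synthesis genes tested, 10 were lower in 15 libraries, with a median of −0.13, and the 10 response targets tested had a median of −0.13 in 15 and 0.00 in 16. The 9 histone deacetylase and acetyltransferase genes tested had medians of 0.06, 0.01 and 0.01 in 15, 16 and 14 libraries.

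Genes of the chloroplast were measured because dark-grown seedlings hold them back and because they separated the 2 libraries that stood apart. The 22 photosystem genes tested were all higher with Dex in 16 libraries, with a median log2 difference of 0.29, but the median was 0.11 without L1 mock replicate 1 and 0.23 without both, and −0.01 in 15 libraries without line L5. The 17 light-harvesting genes tested were all higher in 16 libraries, with medians of 0.28 in 16, 0.05 in 15 and 0.26 in 14. CAB3, a light-harvesting protein of photosystem II, had 77.5, 437 and 512 CPM with Dex and 10.4, 306 and 412 with all mock libraries. Its low values were those of L1 mock replicate 1, at 10.4, and L2 Dex replicate 1, at 77.5, and the L5 libraries differed among themselves from 136 to 512. The 5 genes of the Rubisco small subunit and its activase were all higher in 16 libraries, with medians of 0.26, 0.26 and 0.23 in the 16, 15 and 14 libraries. No photosynthesis gene passed the adjusted threshold, and the number with an unadjusted p under 0.05 was 0 in both lists in 16 and in 15 libraries. In 14 libraries it was 10 photosystem and 2 light-harvesting genes, all higher, where 2.09% of all genes were. Of the dark starvation genes, 7 of 11 tested were lower in 16 libraries with a median of −0.02, 12 of 12 in 15 with a median of −0.22, and 10 of 12 in 14 with a median of −0.08. Without line L2 the median in 15 libraries was −0.04. ELIP1, an early light-induced protein, had 0, 5.11 and 13.8 CPM with Dex and 0.212, 1.19 and 4.64 with mock, and differed by 1.40 (SE 0.56, adjusted p = 0.764), with 2.12 in L2 and 1.82 in L4 against 0.17 in L1 and −0.20 in L5.

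The pathways of central metabolism and aliphatic glucosinolate synthesis, which the study set out to link to its regulators, had medians that moved with L1 mock replicate 1. Of the TCA cycle genes tested, 42 of 52 were lower with Dex in 16 libraries with a median log2 difference of −0.07, and 22 of 53 in 15 libraries with a median of 0.04. Those of glycolysis and gluconeogenesis were lower for 36 of 56 in 16 libraries and for 20 of 56 in 15, with medians of −0.07 and 0.02. The summed level of the TCA cycle genes was 8316 CPM in L1 mock replicate 1 and 6759 in L2 Dex replicate 1, against 5213 to 6005 in the other 14. SDH7, a subunit of succinate dehydrogenase, differed by 0.39 (SE 0.13, adjusted p = 0.764) in 15 libraries. Aliphatic glucosinolates are sulfur-rich defence compounds of the Brassicaceae made from methionine, and the 7 genes of the pathway tested had medians of −0.19 in 16, 0.04 in 15 and −0.05 in 14 libraries. A list of 18 genes of this pathway whose promoters ENAP1 bound in yeast was taken from a supplementary table read only in part, and 5 of the 17 in the count table passed the filter on low counts. Their medians were −0.06, 0.04 and 0.01 in the 16, 15 and 14 libraries. BCAT3, a branched-chain aminotransferase, differed by 0.29, and CYP83B1, which acts in indole glucosinolate synthesis, by −0.29 in 15 libraries, and neither had an unadjusted p under 0.05. Of the regulators of glucosinolate synthesis, MYB51 and MYB34, MYB factors of indole glucosinolates, differed by −0.26 and 0.33 in 15 libraries but by −0.17 and −0.19 in 16, so the sign of MYB34 turned with L1 mock replicate 1. Serine synthesis had medians of −0.32 in 16 and 0.02 in 15 libraries, and arginine and glycine synthesis of −0.13 and 0.31, so that the sign turned with 1 library.

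**Figure D5:**
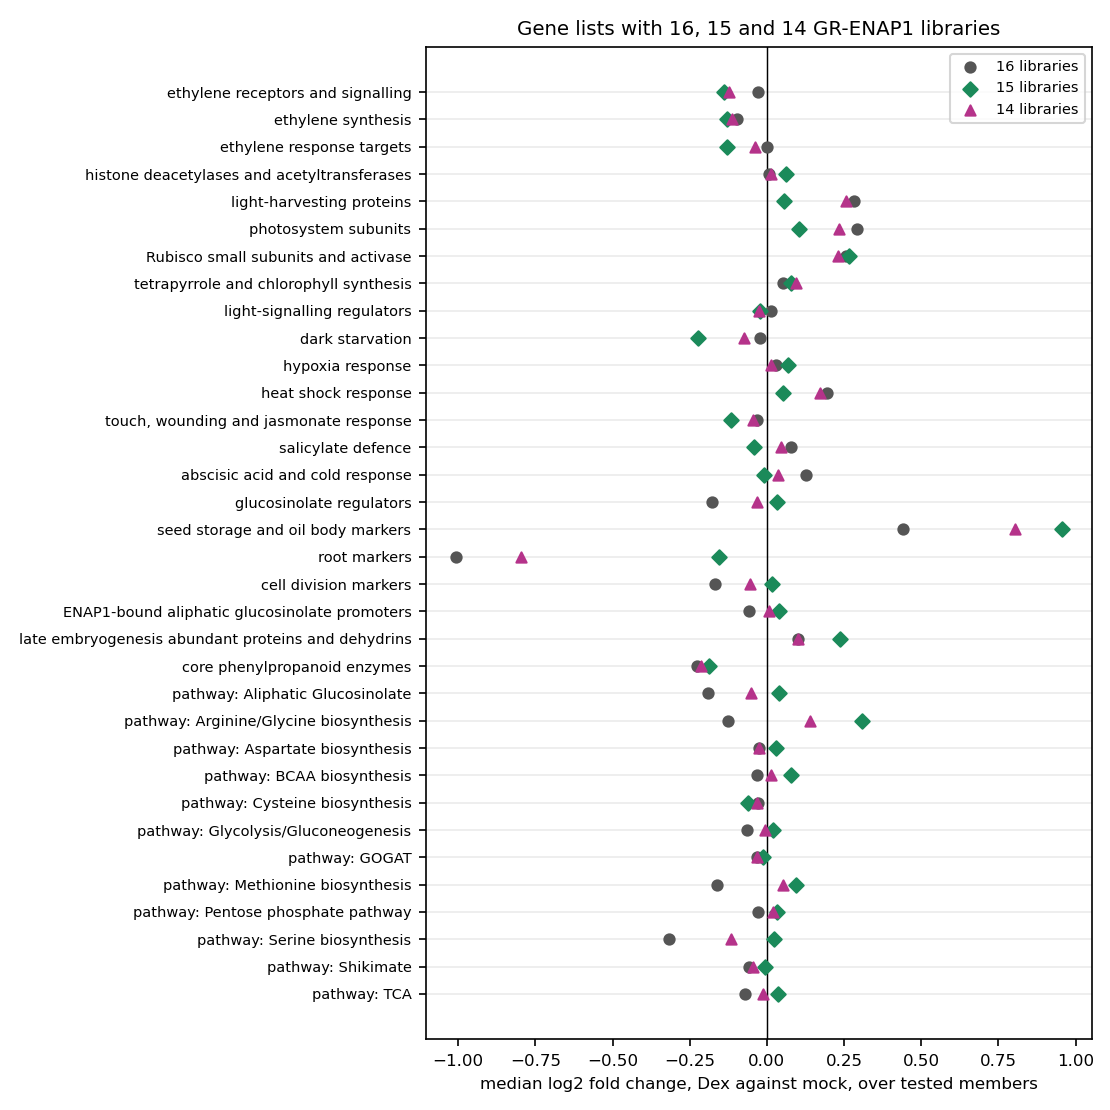
Median log2 difference, Dex over mock, of each gene list among its genes tested, for the 16 libraries (grey circles), the 15 without L1 mock replicate 1 (green diamonds) and the 14 without both libraries that stood apart (magenta triangles). Seed storage and oil body genes lie at 0.44, 0.96 and 0.80, root markers at −1.01, −0.15 and −0.80, and most other lists close to 0. The genes tested differ between the sets, with 7, 7 and 5 root markers.

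Root markers had the lowest median of any list in 16 libraries, −1.01, with 6 of 7 tested lower with Dex. In 15 libraries the median of the 7 tested was −0.15. In 14 libraries only 5 passed the filter on low counts, with a median of −0.80, so these medians are not of the same genes. The sums of these markers overlapped between treatments, at 87.8 to 143 CPM with Dex and 89.7 to 246 with mock. The heat shock list had medians of 0.19, 0.05 and 0.17, and the cell division list of −0.17, 0.01 and −0.05, in the 16, 15 and 14 libraries.

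Whether the response differed between lines was asked with an F-test of line by treatment over all genes. In 16 libraries 0 of 18506 genes (0%) passed an adjusted p of 0.05 and 947 (5.12%) had an unadjusted p under 0.05. In 15 libraries 0 of 18837 (0%) passed and 669 (3.55%) were under the unadjusted threshold. No seed gene passed this test, CRA1 with its 3.25 in L2 and 0.09 in L5 included.

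Whether the response of GR-ENAP1 lines differed from the mean response of the lines of the other 3 factors was asked in a single fit. All 4 factors received Dex, so a response to Dex shared by all lines cancels in this contrast. It called 0 of 19541 genes (0%) in 64 libraries, with 1275 (6.52%) at an unadjusted p under 0.05. It called 0 of 20027 (0%) without L1 mock replicate 1, with 759 (3.79%), and 0 of 19598 (0%) without the 5 libraries of any factor that stood apart, with 1212 (6.18%). ARF19 was among the 5 genes of lowest p that were lower. Its log2 difference in the fit of 63 libraries was −0.34 in GR-ENAP1, −0.06, 0.27 and −0.11 in GR-CHA19, GR-LBD16 and GR-WRI3, and the contrast was −0.37 (SE 0.10, adjusted p = 1). AT5G44310 differed by −0.70, −0.81 and 0.94 in the same order, and its contrast was 2.29 (SE 0.88, adjusted p = 1) in 63 libraries and 1.81 in 59. AT4G25707 differed by −0.37, 0.14 and −0.04 in these 3 factors. The gene of lowest p was AT1G21370, with −0.22 in GR-ENAP1 against 0.15, 0.12 and 0.21 in the other 3 and a contrast of −0.38 (adjusted p = 1). VIP4, a subunit of the Paf1 complex that acts with RNA polymerase II on chromatin, had a contrast of 0.23, with 0.12 in GR-ENAP1 against −0.14, −0.07 and −0.14. HMGB5, a high mobility group chromatin protein, and ARGAH1, an arginase, had contrasts of 0.34 and 0.36.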

How the data were processed

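The authors grew the seedlings, prepared libraries that did not keep strand from poly(A) RNA and sequenced them in 2 runs. Per the study's methods and the submitters' processing notes, reads were trimmed with Trim Galore 0.6.0, checked with FastQC 0.11.7 and mapped to TAIR10 with STAR 2.7.0f. The deposited values are the authors' read counts of 32833 genes for each library and run, with no normalization, and the counts of the 2 runs were summed here. Genes were kept by filterByExpr of edgeR 4.0.16 (R 4.3.3) within line and treatment. The test was edgeR's robust quasi-likelihood F-test with TMM factors, line as a block and treatment, with Benjamini-Hochberg adjustment over all genes and a threshold of 0.05. Alternatives used limma 3.58.1, DESeq2 1.42.0 and MASS 7.3.60.0.1 (glm.nb), other scalings, no filter, replicate blocks, single runs, and fits without each library or line. Line differences are means of log2(CPM + 0.5). The text names the 12 genes of lowest p in each direction with a mean of at least 1 CPM in 15 libraries, and some of the 12 chosen likewise in 16. The same direction in all 4 lines was also required of them. It also names some of the 5 of lowest p in each direction in the contrast with the other factors, without the condition on lines. Members of 32 gene lists are named too, and some of these lists hold genes of the study's pathways. The members and lists were chosen with earlier results of these data known. Figures were drawn with matplotlib 3.10.9 (Python 3.11.15). The contrast covered the libraries of all 4 factors. The library totals, 2059928 to 7571782 counts, limit the precision of genes near 1 CPM, for which a library holds only a few counts.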

Additional observations from a re-analysis of the deposited data

Results flagged for a closer look

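Among the 8 libraries of a treatment, 1 library lay far from the other 7, by Dixon's test at 95%, for 14 values, and chance alone marks about 1 in 20 groups. How many values were examined is not given here, so the 14 cannot be set against that rate. In the median correlation, L2 Dex replicate 1 had 0.894 against 0.956 for the nearest Dex library, and L1 mock replicate 1 had 0.802 against 0.963 for the nearest mock library. The same mock library was also far above the others in the summed root markers, at 246 CPM against 142, and in the summed cell division markers, at 132 against 85.6. It was highest of the mock libraries in TOM20-3, at 53.2 CPM against 21.1, and in AT3G19920, at 54.3 against 20.6. L2 Dex replicate 1 was far above the other Dex libraries in AT5G44310, at 77.0 CPM against 28.2, AT3G15670, at 190 against 69.6, AT4G21020, at 67.9 against 30.2, and AT3G01570, at 30.6 against 14.8. It was also above them in ATOEP16-2, at 26.4 against 8.05, and AT3G19920, at 82.1 against 32.2, and below them in ARF19, at 27.4 against 33.7. L2 Dex replicate 2 was far above the others in CRA1, at 83.2 CPM against 37.8 in L2 Dex replicate 1. Of the 14 values, 13 belong to the 2 libraries whose expression as a whole stood apart.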

How the results depend on the processing

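The count of genes past the adjusted threshold was 0 under most alternatives, with these exceptions. In 16 libraries voom quality weights gave 1 gene, CRA1, and the study's glm.nb model 292, 131 higher and 161 lower. In 15 libraries DESeq2 gave 1 (AT5G44310), voom quality weights 1 (CRA1), no filter on low counts 193 of 26363 (136 higher, 57 lower) and glm.nb 831. A replicate block added to the line block gave 15 genes in 15 libraries, all higher, 8 of them LEA genes by product name. A block for each pair of line and replicate number, called line and replicate block here, gave 10, with AT3G13610 the 1 lower. In alternatives chosen after seeing the data, without both libraries that stood apart, the replicate block gave 8 and line and replicate block 7. AT5G44310, AT3G02480, AT3G15670 and LEA passed in each of these 4 fits, and both blocks gave 0 genes in 16 libraries. The deviations of same-numbered Dex and mock libraries correlated at −0.27 in L1, 0.37 in L2, 0.15 in L4 and −0.05 in L5. These values differ in sign, so they do not settle whether same-numbered libraries share more than a number. Replicate 1 exceeded replicate 2 in AT5G44310 in 8 of 8 pairs. The 5 libraries of any factor that stood apart were all replicate 1. Leaving out each library or line in turn gave 0 genes in the Dex comparison, and the 13 alternatives of the contrast with other factors gave 0. The count for line by treatment ranged from 0 to 6712 in 16 libraries, the highest without L1 mock replicate 2, and from 0 to 163 in 15, the highest without L2 Dex replicate 2, and was 395 in 15 libraries with no filter. The line by treatment fit without L1 mock replicate 2 in 15 libraries could not be fitted, since no L1 mock library is then left.

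Of 3629 recomputed differences of 111 named genes, 3505 kept their direction and side of the threshold, 107 came to pass it, 0 were lost and 17 changed sign, in 6 genes. ENAP1 in 16 libraries was 0.04 without L1 Dex replicate 2, 0.14 without L1 mock replicate 2, 0.03 without L2 Dex replicate 1, 0.04 without L2 mock replicate 2, 0.08 without L5 Dex replicate 1, 0.01 without L5 mock replicate 2, 0.06 without line L2 and 0.08 without line L5. Over the fits without 1 library ENAP1 in 16 libraries ranged from −0.17 to 0.14, CAB3 in 15 from −0.07 to 0.52 and EDA9 in 15 from −0.02 to 0.27. CAB3 was −0.07 without L5 Dex replicate 1 and −0.03 without line L5, GLU1 was 0.11 without line L2 and 0.02 with line and replicate block in 14 libraries, and EDA9 was −0.02 without L2 Dex replicate 1, −0.02 without line L2 and −0.01 with the replicate block in 14 libraries. CDKB1;1 was 0.02 and SDH3-2 0.05 in run 1 alone. The cause was not tested. Genes near 1 CPM rest on a few counts per library, and differences smaller than the SE could not be resolved at this depth.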
